A study of Mus musculus with 9 samples.

Results

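Chemokines, the alarmin interleukin 33 and the microglial growth factors Csf1 and Il34 were described in poly(A) RNA libraries of mouse brain. The members are 10 genes of the 21853 in the files: Ccl2, Ccl3, Ccl4, Ccl17, Cxcl12, Cxcl14, Cx3cl1, Il33, Csf1 and Il34. They were listed by name and selected on their values in all 9 libraries, so their own levels are given as a description. The label holds for every member by gene identity, and 9 of the 10 passed the filter on low values (10 or more in 3 or more libraries). Ccl4 did not pass it.

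The 9 libraries form 3 groups of 3. HD-WNT5B libraries came from N171-82Q mice, a transgenic model of Huntington's disease (HD), given the virus pAAV-GFAP(pro)-WNT5B-P2A-mCherry. HD-Control libraries came from N171-82Q mice given pAAV-GFAP(pro)-Control-mCherry. WT-Control libraries came from wild-type mice given that same control virus. All 3 groups therefore received an adeno-associated virus with the astrocyte promoter GFAP and mCherry, and no uninjected mice were in the comparison. According to the series text the virus went into the striatum, while the labels give the tissue only as brain. N171-82Q mice carry an N-terminal fragment of huntingtin with an expanded glutamine repeat, driven by the prion protein promoter. Neither age nor sex is in the labels. Nothing says that replicates are different animals, so the p-values measure only the spread between libraries, which may be technical.

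Chemokines are small secreted proteins that guide leukocytes through G protein-coupled receptors. In brain, neurons make Cx3cl1 and Il34, which act on the receptors Cx3cr1 and Csf1r of microglia. Il33 is held in the nucleus of glial cells and acts as an alarm signal when cells are damaged. Ccl2, Ccl3, Ccl4 and Ccl17 are scarce in healthy brain and are known as induced inflammatory chemokines, whereas Cxcl12 and Cxcl14 are made without inflammation.

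The deposited values are normalized read values, and 1 read was worth 1.61 to 2.14 in HD-WNT5B, 0.616 to 0.797 in HD-Control and 0.704 to 0.808 in WT-Control libraries. The depth was 37.3 to 52.1 M reads in HD-WNT5B libraries, against 69.8 to 90.6 M in HD-Control and 67.8 to 77.8 M in WT-Control libraries. The HD-WNT5B libraries stood apart. They had 14291 to 14588 genes above 0, against 17223 to 17349 in HD-Control and 17027 to 17132 in WT-Control libraries. Genes at the value of 1 read numbered 46 to 73, against 459 to 514 in HD-Control and 452 to 496 in WT-Control libraries. The median SD of log2 values over 13081 genes was 0.233 in HD-WNT5B, against 0.0333 in HD-Control and 0.0393 in WT-Control libraries. The mouse gene Wnt5b was at 184, 22.5 and 212 in the libraries labelled HD-WNT5B, against 63.8, 44.2 and 49.3 in HD-Control and 74.6, 63.8 and 57.7 in WT-Control. The second HD-WNT5B library was below all 6 controls. The labels do not give the species of the viral WNT5B, so reads of the virus need not count at the mouse gene. Markers of striatal projection neurons, astrocytes and microglia were above 0 in every group. In bulk tissue, fewer cells of a type and less RNA per cell cannot be told apart.

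The members differed in how they were ordered over the 3 groups. Ccl17 was highest in HD-WNT5B and lowest in WT-Control libraries, and Cx3cl1 and Cxcl12 had the reverse order. For Cxcl12, HD-WNT5B was no longer below HD-Control with the trend of exon length removed. Ccl2 and Ccl4 were highest in HD-Control and at 0 in HD-WNT5B libraries, and Csf1 was likewise highest in HD-Control and lowest in HD-WNT5B. Cxcl14, Il33 and Il34 were lowest in HD-Control libraries, although the HD-WNT5B level of Il33 was near that of HD-Control, and the order of these groups for Il33 and Il34 turned under other scales of the libraries. Ccl3 was higher in HD-Control than in WT-Control and spread over both levels in HD-WNT5B libraries.

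Ccl2, which draws monocytes through Ccr2, lies on chromosome 11 at 82035571 to 82037453 (mm10, plus strand, GENCODE M21). It was at 0 in all 3 HD-WNT5B libraries, against 92.5, 56.0 and 60.3 in HD-Control and 0.704, 2.42 and 1.46 in WT-Control libraries. The groups did not overlap. HD-Control was 3.99 higher than WT-Control on the log2(value + 3) scale (standard error, SE, 0.32), which is 45.5 times as a ratio of means. In reads, that is 290 in HD-Control against 6 in WT-Control, a depth-adjusted ratio of 45.99 (exact 95% interval 20.87 to 126.4, counting error only). By counting error alone, 0 reads in HD-WNT5B libraries allow a value of up to 4.82 to 6.43 (3 reads). That is above every WT-Control value and below every HD-Control value. Low genes can spread by more than counting error in these libraries (Ccl3 had 0, 19 and 46 reads), and the limit leaves this out.

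Ccl3 and Ccl4, which draw monocytes and other leukocytes, Ccl3 among other routes through Ccr1, are neighbours on chromosome 11. Ccl3 lies at 83647844 to 83649355 (minus strand) and Ccl4 at 83662584 to 83664683 (plus strand), 13228 bases apart with no other gene of the files between them. Ccl3 was at 0, 30.5 and 98.6 in HD-WNT5B libraries, against 88.5, 92.9 and 102 in HD-Control and 14.1, 4.04 and 11.7 in WT-Control libraries. The HD-Control libraries were close together and all above the WT-Control libraries. The HD-WNT5B libraries spread over most of the range of both controls, so no level can be given for that group beyond these 3 values. HD-Control was 9.52 times WT-Control by means (log2 difference 3.01, SE 1.11), or 403 reads against 41 (ratio 9.353, exact 95% interval 6.773 to 13.23). That SE comes from a spread shared by the 3 groups, so it carries the scatter of the HD-WNT5B libraries.

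Ccl4 was at 0 in all 3 HD-WNT5B libraries, against 15.9, 17.0 and 6.77 in HD-Control and 6.33, 3.23 and 1.46 in WT-Control libraries. The HD-Control and WT-Control libraries did not overlap, although the third HD-Control library lay only just above the first WT-Control library. The 54 HD-Control reads against 15 WT-Control reads give a ratio of 3.425 (exact 95% interval 1.905 to 6.536). By counting error alone, the limit that 0 reads allow in HD-WNT5B libraries, 4.82 to 6.43, lies just below the lowest HD-Control value and spans the highest WT-Control value.

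How often genes of a like level were at 0 in HD-WNT5B libraries was counted over the whole table. Of 1622 genes within 2-fold of the HD-Control mean of Ccl2, 7.64% were at 0 in all 3 HD-WNT5B libraries and 40.5% in at least 1. For 1741 genes around the level of Ccl3 the shares were 5% and 33%, and for 1178 genes around the level of Ccl4 they were 34.8% and 80.6%. A 0 at the level of Ccl4 was thus common in these libraries, and it was less common at the level of Ccl2.

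Ccl17, the ligand of Ccr4 that draws T cells and is known from dendritic cells, had the largest ratios between groups of the 8 members above 0 in each of the 3 groups. It lies on chromosome 8 at 94810453 to 94812036 (plus strand). Its values were 3459, 3256 and 2526 in HD-WNT5B libraries, against 332, 349 and 306 in HD-Control and 16.9, 14.5 and 16.1 in WT-Control libraries. The 3 groups were apart, with HD-WNT5B above HD-Control and HD-Control above WT-Control. HD-WNT5B was 9.36 times HD-Control by means (log2 difference 3.20, SE 0.17), a difference that was 1.25 with the trend of exon length removed. HD-Control was 20.8 times WT-Control (4.14, SE 0.17). In reads, HD-Control had 1387 and WT-Control 64 (ratio 20.62, exact 95% interval 16.05 to 26.93). Ccl22, the other ligand of Ccr4, did not share this pattern. It was at 0 in all 3 HD-WNT5B libraries, against 6.38, 15.5 and 12.9 in HD-Control and 7.04, 7.27 and 18.2 in WT-Control libraries. However, Ccl22 was within 2-fold of Ccl4 by HD-Control means, a level at which a 0 was common in HD-WNT5B libraries.

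Ccl17 and Cx3cl1 are neighbours on the same strand of chromosome 8, 28025 bases apart with no other gene of the files between them, and Ccl22 lies 20309 bases on the other side of Cx3cl1. Their levels ran in opposite directions over the 3 groups, and the start regions of both are therefore shown. Each holds 250 bases before and 50 after the start site in RefSeq (GRCm38.p6), which for Cx3cl1 is not the start of the GENCODE gene. Capitals mark the TATA box TATAAA or the GC box GGGCGG, on either strand.
Ccl17, chr8:94810203-94810502, plus strand: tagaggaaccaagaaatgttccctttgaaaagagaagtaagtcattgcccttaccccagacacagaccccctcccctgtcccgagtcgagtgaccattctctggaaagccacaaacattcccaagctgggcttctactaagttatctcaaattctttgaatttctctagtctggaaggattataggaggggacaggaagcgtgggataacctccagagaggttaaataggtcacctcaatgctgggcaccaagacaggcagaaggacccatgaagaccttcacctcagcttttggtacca
Cx3cl1, chr8:94771930-94772229, plus strand: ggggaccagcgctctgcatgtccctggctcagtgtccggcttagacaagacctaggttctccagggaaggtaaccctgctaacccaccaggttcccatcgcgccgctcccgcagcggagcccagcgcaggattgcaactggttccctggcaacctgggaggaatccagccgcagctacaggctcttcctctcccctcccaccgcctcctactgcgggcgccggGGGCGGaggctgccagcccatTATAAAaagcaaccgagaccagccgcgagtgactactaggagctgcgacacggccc
The 300 bases of Ccl17 hold neither motif and no match to the NF-kappaB consensus, whereas those of Cx3cl1 hold 1 GC box and 1 TATA box at position -6, counted from the start site. Of 32544 RefSeq start regions of this length, 13.57% hold a TATA box, 35.88% a GC box and 8.49% the NF-kappaB consensus. These are matches of letters and not sites of binding.

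**Figure D1:**
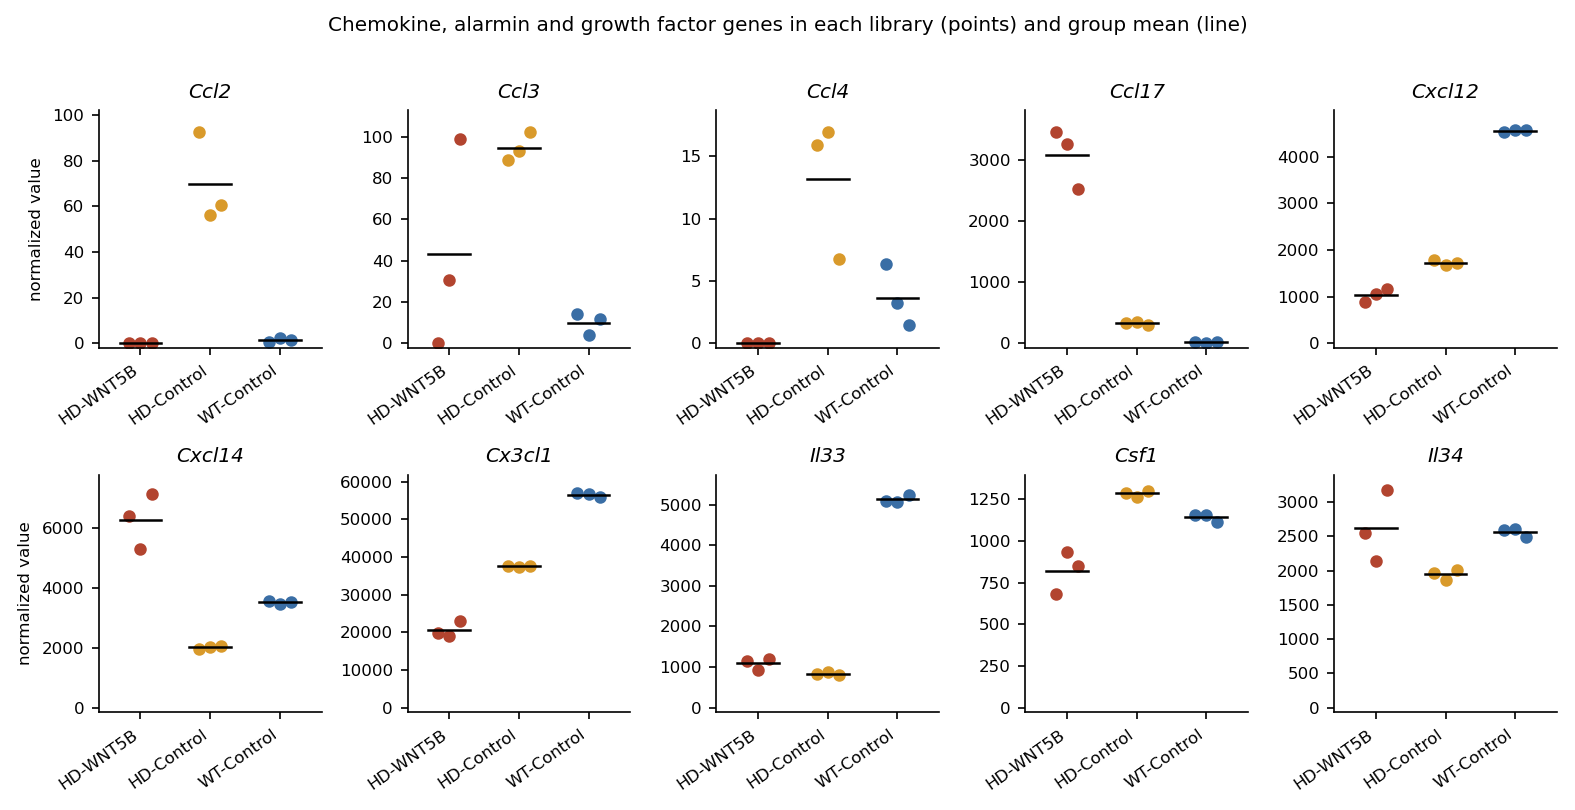
Normalized value (linear axes from 0) of the 10 genes in each library (points), with the group mean (line), for HD-WNT5B, HD-Control and WT-Control from left to right. Ccl17 reaches 2526 to 3459 in HD-WNT5B libraries, Il33 and Cxcl12 are highest in WT-Control libraries, and the HD-WNT5B points of Ccl3 spread between 0 and 98.6.

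Cx3cl1, fractalkine, is a membrane-tethered chemokine of neurons. It lies on chromosome 8 at 94772009 to 94782427. It was at 19806, 19169 and 23027 in HD-WNT5B libraries, against 37713, 37491 and 37662 in HD-Control and 57034, 56709 and 56062 in WT-Control libraries. The 3 groups were apart and stood in the reverse order of Ccl17. HD-WNT5B was lower than HD-Control by 0.87 on the log2 scale (SE 0.06, 0.549 times by means), and HD-Control was lower than WT-Control by 0.59 (SE 0.06, 0.665 times). Cx3cl1 had the highest value of the 10 genes in each of the 9 libraries. Of 10 markers of striatal projection neurons 7 fell and 3 rose in HD-Control against WT-Control, and 5 fell and 3 rose in HD-WNT5B against HD-Control. Over all genes tested, 24.5% rose and 20.7% fell in the first of these comparisons, and 35.8% rose and 41.7% fell in the second. The counts of the second comparison were near these shares. The summed level of the 10 markers was 3.6025e+05 to 3.7333e+05 in HD-WNT5B, against 4.5302e+05 to 4.5762e+05 in HD-Control and 5.152e+05 to 5.1603e+05 in WT-Control libraries. Their part in the levels of Cx3cl1 and Il34 was not tested.

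Adam10 and Adam17, the proteases that shed fractalkine from the membrane, were among 20 genes listed for chemokine processing and signalling. Adam10 fell to 1615, 2026 and 1658 in HD-WNT5B libraries, against 3148, 3082 and 3161 in HD-Control libraries (log2 difference -0.83, SE 0.08, limma, Benjamini-Hochberg adjusted p = 1.75e-05, and -0.419 with the trend of exon length removed). It also fell in HD-Control against WT-Control libraries, which had 4901, 4921 and 5189 (-0.68, SE 0.08, adjusted p = 2.55e-04). Adam17 fell in HD-WNT5B against HD-Control (-0.84, SE 0.13, adjusted p = 2.8e-04), and its difference between HD-Control and WT-Control did not pass (-0.30, SE 0.13, adjusted p = 0.0858).

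Cxcl12, which acts on Cxcr4 and is scavenged by Ackr3, lies on chromosome 6 at 117168535 to 117181367. It was at 896, 1067 and 1171 in HD-WNT5B libraries, against 1778, 1671 and 1731 in HD-Control and 4527, 4569 and 4568 in WT-Control libraries. The groups did not overlap, and WT-Control was highest. HD-Control was lower than WT-Control by 1.40 on the log2 scale (SE 0.09, 0.379 times by means). HD-WNT5B was lower than HD-Control by 0.73 (SE 0.09), a difference that was 0.005 with the trend of exon length removed.

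Cxcl14, a chemokine of neurons and epithelia, lies on chromosome 13 at 56288643 to 56296551. It was at 6412, 5307 and 7169 in HD-WNT5B libraries, against 1955, 2045 and 2082 in HD-Control and 3574, 3485 and 3536 in WT-Control libraries. HD-Control was the lowest group and HD-WNT5B the highest, without overlap. The log2 difference of HD-WNT5B from WT-Control was 0.82 and came to 0.242 with equal totals. HD-WNT5B was 3.11 times HD-Control (log2 difference 1.62, SE 0.10), and HD-Control was 0.574 times WT-Control (-0.80, SE 0.10). Cxcl12 and Cxcl14 were thus both lower in HD-Control than in WT-Control. They stood on opposite sides of HD-Control in HD-WNT5B libraries, but Cxcl12 did not keep its side with the trend of exon length removed.

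Il33 lies on chromosome 19 at 29925114 to 29960718. It was at 1143, 924 and 1201 in HD-WNT5B libraries, against 834, 886 and 807 in HD-Control and 5090.4, 5050 and 5240 in WT-Control libraries. Both HD groups were far below WT-Control. HD-Control was 0.164 times WT-Control by means (log2 difference -2.60, SE 0.10), and HD-WNT5B was 0.212 times WT-Control (-2.24, SE 0.10). The lowest HD-WNT5B library was just above the highest HD-Control library (log2 difference 0.36, SE 0.10), and the sign of that difference turned with equal totals (-0.191) and with upper-quartile factors (-0.021).

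Il33 is made by oligodendrocytes and astrocytes, and markers of both were counted beside the shares over all genes tested (background). Of 10 oligodendrocyte markers 9 fell and 0 rose in HD-Control against WT-Control (background 24.5% higher and 20.7% lower, median log2 difference -0.85 against 0.02). In HD-WNT5B against HD-Control 3 fell and 7 rose (background 35.8% higher and 41.7% lower, median 1.07 against -0.23). Their summed level was 8.3942e+05 to 8.886e+05 in HD-WNT5B, against 3.6312e+05 to 3.6558e+05 in HD-Control and 4.9683e+05 to 5.0183e+05 in WT-Control libraries. Of 10 astrocyte markers 6 fell and 2 rose in HD-Control against WT-Control (median -0.37), and 4 fell and 5 rose in HD-WNT5B against HD-Control (median 0.34), the latter counts near the background. Their summed level was 1.0254e+05 to 1.1065e+05 in HD-WNT5B, against 1.6959e+05 to 1.7106e+05 in HD-Control and 2.8023e+05 to 2.8452e+05 in WT-Control libraries. The astrocyte sum was thus lowest in HD-WNT5B libraries although more of its markers rose than fell against HD-Control. The part of these markers in the levels of Il33, Cxcl12 and Ptprz1 was not tested.

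The growth factors Csf1 and Il34 share the receptor Csf1r, on which microglia depend for survival. Csf1 lies on chromosome 3 at 107741048 to 107760469. It was at 680, 935 and 847 in HD-WNT5B libraries, against 1288, 1265 and 1299 in HD-Control and 1153, 1156 and 1112 in WT-Control libraries. HD-WNT5B was below both control groups, 0.639 times HD-Control by means (log2 difference -0.66, SE 0.11), and that difference was -0.188 with the length trend removed. HD-Control was 1.13 times WT-Control, without overlap (0.17, SE 0.11).

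Il34, on chromosome 8 at 110741829 to 110805924, went the other way. It was at 2544, 2141 and 3172 in HD-WNT5B libraries, against 1965, 1857 and 2011 in HD-Control and 2588, 2608 and 2488 in WT-Control libraries. HD-Control was the lowest group, at 0.759 times WT-Control (log2 difference -0.40, SE 0.12). HD-WNT5B overlapped WT-Control and was 1.35 times HD-Control (0.41, SE 0.12). That difference was -0.143 with equal totals and -0.039 with the length trend removed. Of the exon bases of Il34, 4.95% lie opposite the antisense genes Gm15894 and Gm15895, and the library kit does not keep the strand.

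The start regions of Il33 and Csf1 are shown because these genes stand for the widest and the narrowest difference between HD-Control and WT-Control among the abundant members. Capitals mark the TATA box of Il33, and in Csf1 the NF-kappaB consensus and 2 GC boxes.
Il33, chr19:29924863-29925162, plus strand: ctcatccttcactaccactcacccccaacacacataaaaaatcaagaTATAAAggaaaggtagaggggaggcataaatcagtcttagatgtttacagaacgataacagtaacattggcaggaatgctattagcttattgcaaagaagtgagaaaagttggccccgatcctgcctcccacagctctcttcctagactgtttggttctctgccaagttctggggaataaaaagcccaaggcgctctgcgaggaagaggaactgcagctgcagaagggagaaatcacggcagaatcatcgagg
Csf1, chr3:107760420-107760719, minus strand: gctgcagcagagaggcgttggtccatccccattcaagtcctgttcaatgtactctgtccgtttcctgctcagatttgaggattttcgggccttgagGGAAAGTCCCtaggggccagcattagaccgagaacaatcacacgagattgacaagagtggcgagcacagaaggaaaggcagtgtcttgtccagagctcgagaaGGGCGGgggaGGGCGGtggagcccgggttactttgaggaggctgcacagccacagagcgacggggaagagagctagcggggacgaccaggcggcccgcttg
The TATA box of Il33 begins at position -203 from this start site, which is the one nearest to the GENCODE gene start, and another RefSeq start of the gene has a TATA box at position -29. Csf1 was the one member of the 7 matched in the RefSeq table whose start region held the NF-kappaB consensus, at position -154 and read from the opposite strand. The other 3 matched genes were Cxcl12, Ccl3 and Cxcl14, and Ccl2, Ccl4 and Il34 were not matched.

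**Figure D2:**
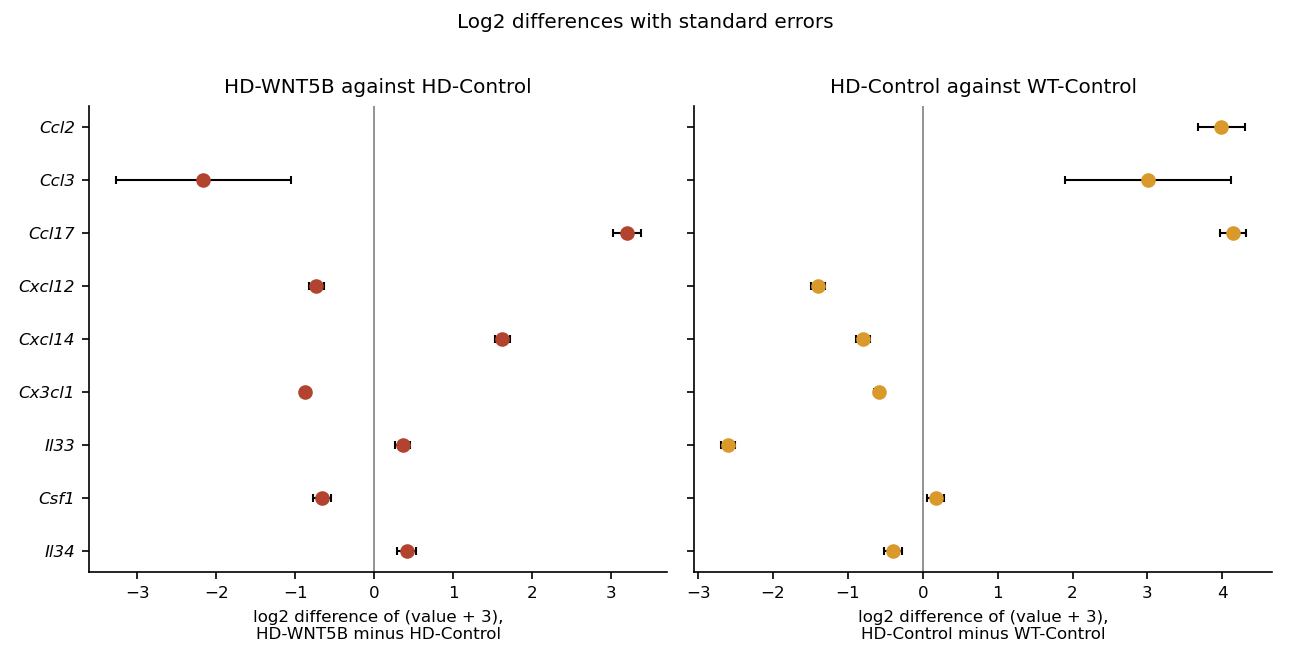
Log2 difference of (value + 3) with its standard error (bars) for HD-WNT5B minus HD-Control (left) and HD-Control minus WT-Control (right). Ccl4 was below the filter and Ccl2 is left out on the left because all 3 HD-WNT5B libraries are at 0. Ccl17 is positive in both panels, Cx3cl1 and Cxcl12 are negative in both, and Cxcl14, Il33 and Il34 are positive on the left and negative on the right; on the left the sign of Il33 and Il34 turned with equal totals, and that of Cxcl12 with the length trend removed.

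Over all 15411 genes tested, 45.1% passed the threshold (limma adjusted p under 0.05) in HD-Control against WT-Control, 77.5% in HD-WNT5B against HD-Control and 77.9% in HD-WNT5B against WT-Control. Of the 9 members tested, 7 passed in HD-Control against WT-Control, Ccl2 and Ccl17 higher and Cxcl12, Cxcl14, Cx3cl1, Il33 and Il34 lower. Between HD-WNT5B and HD-Control 8 of 9 passed, 4 in each direction, and in HD-WNT5B against WT-Control 6 of 9, 2 higher and 4 lower (background 35.9% higher and 42.1% lower). These counts support nothing, since the genes were listed with their values known, and Ccl2 passed the filter on low values through the HD-Control libraries alone. The median log2 difference of the 9 members was -0.40, -0.66 and -0.49 in these 3 comparisons, against 0.02, -0.23 and -0.24 over all genes tested. The comparisons share their groups, HD-Control standing in the first 2.

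Receptors of these ligands were tested as well. They were not among the members, but their list was also chosen with earlier results of these data known. Of 10 genes, Ccr4 was below the filter, at 0 in all 3 HD-WNT5B libraries and 0 to 5.58 in the controls. In HD-Control against WT-Control 1 of 9 rose and 4 fell (background 24.5% higher and 20.7% lower, median log2 difference -0.94 against 0.02 over all genes). In HD-WNT5B against HD-Control 1 rose and 5 fell (background 35.8% and 41.7%, median -0.69 against -0.23). Ccr1 passed the filter through the HD-Control libraries alone, and Ccr2 and Il1rl1 not without the WT-Control libraries. These genes had to be high in that group, so the counts over the receptors are a description.

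Cx3cr1, the fractalkine receptor of microglia, had the smallest p of the receptors in every comparison and moved opposite to its ligand in HD-WNT5B libraries. It was at 20611, 21166 and 18043 in HD-WNT5B libraries, against 594, 572 and 597 in HD-Control and 4729, 4785 and 4780.0 in WT-Control libraries. It rose to 33.9 times HD-Control in HD-WNT5B (log2 difference 5.07, SE 0.06, limma adjusted p = 5.15e-11) and fell to 0.123 times WT-Control in HD-Control (-3.01, SE 0.06, adjusted p = 3.41e-08). Ligand and receptor were thus both lower in HD-Control than in WT-Control, while in HD-WNT5B libraries the ligand was lowest and the receptor highest of the 3 groups. Of the exon bases of Cx3cr1, 1.73% lie opposite Gm33858.

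The other microglial receptor, Csf1r, did not follow Cx3cr1. It was at 2615, 3935 and 3287 in HD-WNT5B libraries, against 3759, 3903 and 3776 in HD-Control and 8111, 8027 and 7929 in WT-Control libraries. It fell in HD-Control against WT-Control (log2 difference -1.07, SE 0.12, limma adjusted p = 1.78e-04). HD-WNT5B overlapped HD-Control (-0.24, SE 0.12, adjusted p = 0.11), and the difference passed without the second HD-WNT5B library (-0.378, adjusted p = 0.0047) and with equal totals (-0.791). Of the exon bases of Csf1r, 15.1% lie opposite Hmgxb3. Ptprz1, a phosphatase of glial precursors and astrocytes that also binds Il34, fell in HD-Control against WT-Control (-0.94, SE 0.10, adjusted p = 9.84e-05) and in HD-WNT5B against HD-Control (-1.52, SE 0.10, adjusted p = 8.48e-07). Ptprz1 has 14245 exon bases, and all tested genes of 6742 or more had a median of -0.88 in the latter comparison.

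Ccr1 and Ccr2, receptors of CC chemokines, were lowly expressed. Ccr1 was at 0 in all 3 HD-WNT5B libraries, against 19.1, 19.9 and 21.5 in HD-Control and 5.63, 7.27 and 5.11 in WT-Control libraries. HD-Control was 3.37 times WT-Control by means (log2 difference 1.37, SE 0.27). Ccr2, the Ccl2 receptor of monocytes, was at 0 in all 3 HD-WNT5B libraries, against 8.77, 5.90 and 5.54 in HD-Control and 28.2, 18.6 and 19.7 in WT-Control libraries. HD-Control was lower than WT-Control by 1.36 on the log2 scale (SE 0.30), without overlap, while its ligand Ccl2 was higher in HD-Control. Ccr1 and Ccr2 were within 2-fold of Ccl4 by HD-Control means, a level at which a 0 was common in HD-WNT5B libraries.

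For Cxcl12, the receptor Cxcr4 was at 32.2, 72.3 and 51.5 in HD-WNT5B libraries, against 82.1, 83.3 and 80.0 in HD-Control and 33.1, 61.4 and 51.1 in WT-Control libraries. HD-Control was above both other groups without overlap, and these differences did not pass (limma adjusted p = 0.113 against WT-Control, and 0.101 for HD-WNT5B against HD-Control). The difference from WT-Control passed with the 2 groups alone (adjusted p = 0.000567) and without the first HD-WNT5B library (adjusted p = 0.0389) or the second (0.0474). The difference between HD-WNT5B and HD-Control passed without the second HD-WNT5B library (-0.954, adjusted p = 0.0213). Ackr3 fell in HD-WNT5B against HD-Control (-0.67, SE 0.20, adjusted p = 0.0149), but not without the first HD-Control library (adjusted p = 0.0626) or with the 2 groups alone (0.0567), and did not pass in HD-Control against WT-Control (-0.05, adjusted p = 0.858).

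The Il33 receptor Il1rl1 was at 0, 0 and 45.0 in HD-WNT5B libraries, against 2.39, 5.90 and 6.16 in HD-Control and 27.4, 12.9 and 20.4 in WT-Control libraries. HD-Control was below WT-Control without overlap, and the difference did not pass (log2 difference -1.56, SE 0.998, limma adjusted p = 0.245). It passed without the third HD-WNT5B library, the one at 45.0 (adjusted p = 0.00652), and with the 2 groups alone (0.00015). However, Il1rl1 had to be high in WT-Control libraries to pass the filter on low values, so these p-values support nothing. Il1rap, the co-receptor, fell in HD-WNT5B libraries to 0.250 times HD-Control (-2.10, SE 0.28, adjusted p = 1.36e-04) and did not pass in HD-Control against WT-Control (0.27, adjusted p = 0.487). Il1rap has 11360 exon bases, and all tested genes of 6742 or more had a median log2 difference of -0.88 in HD-WNT5B against HD-Control. Of the exon bases of Il1rap, 4.86% lie opposite Gm20319.

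**Figure D3:**
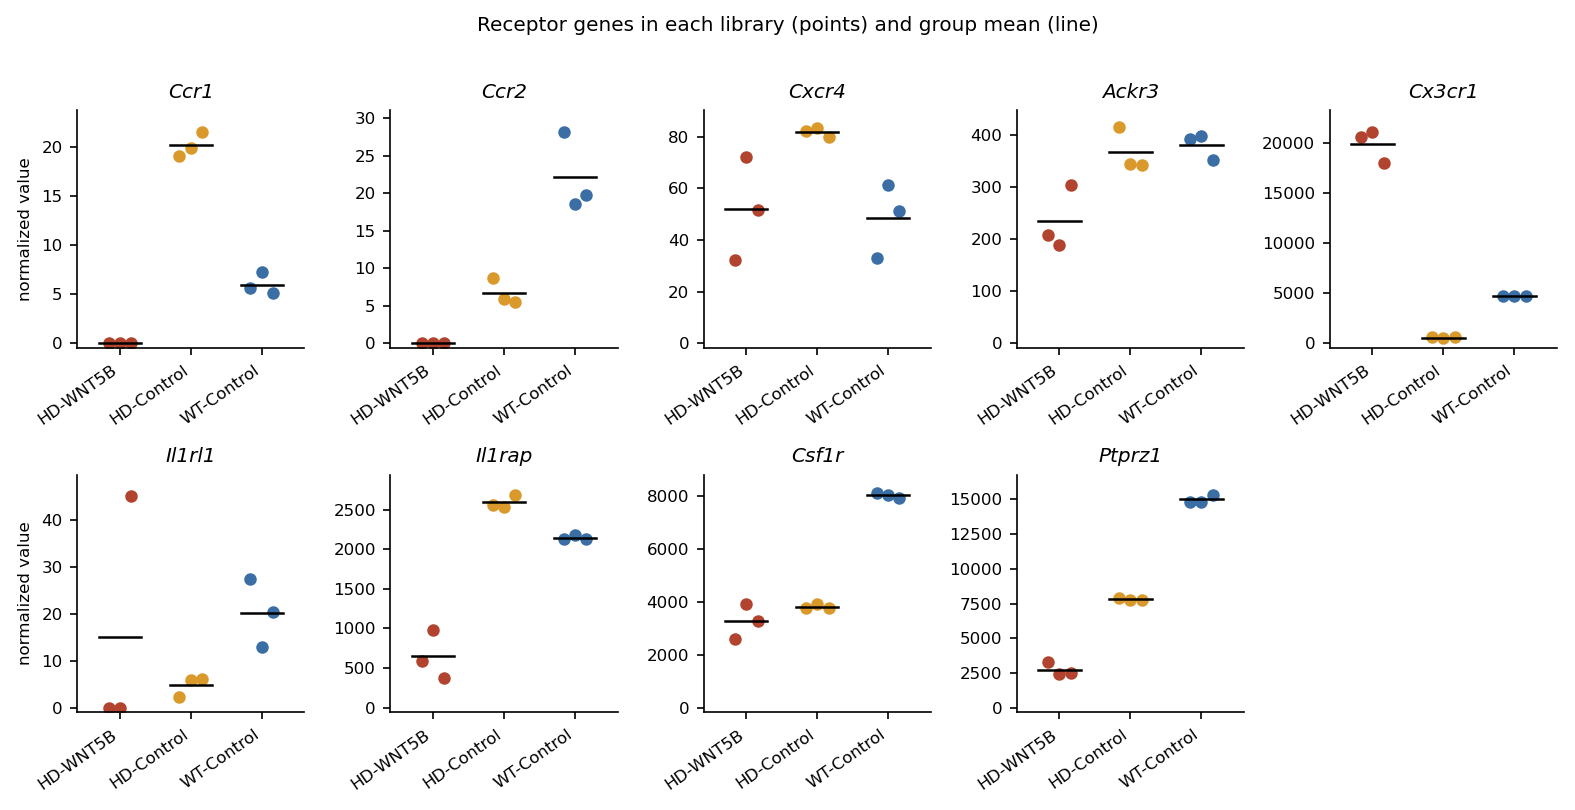
Normalized value (linear axes from 0) of 9 receptor genes that passed the filter, in each library (points) with the group mean (line), for HD-WNT5B, HD-Control and WT-Control from left to right. Cx3cr1 is at 18043 to 21166 in HD-WNT5B libraries, Csf1r and Ptprz1 are highest in WT-Control, and Il1rl1 has HD-WNT5B libraries both at 0 and well above 0.

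Of 29 other chemokine ligand genes in the files, 12 passed the filter. In HD-Control against WT-Control 2 rose, 2 fell and 8 did not pass (background 24.5% higher and 20.7% lower), with a median log2 difference of 0.06 against 0.02 over all genes. Of the 12, Ccl11, Ccl24 and Cxcl1 would not pass the filter without the HD-Control libraries, and Ccl22 not without either control group, so the counts are a description. Cxcl1, a neutrophil attractant, was at 0, 69.1 and 0 in HD-WNT5B libraries, against 71.0, 85.5 and 80.6 in HD-Control and 0.704, 0 and 0 in WT-Control libraries. Ccl25, a ligand of Ccr9 on T cells, rose in both comparisons. It was at 853, 1293 and 1216 in HD-WNT5B libraries, against 435, 475 and 470 in HD-Control and 199, 189 and 185 in WT-Control libraries (HD-WNT5B minus HD-Control 1.26, SE 0.17, adjusted p = 1.36e-04, and HD-Control minus WT-Control 1.26, SE 0.17, adjusted p = 4.41e-04).

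Against HD-Control, 4 of these 12 rose in HD-WNT5B libraries, 3 fell and 5 did not pass (background 35.8% higher and 41.7% lower, median -0.74 against -0.23). The count of 7 was 3 or 4, of 11 or 12 tested, without any 1 HD-Control library. Ccl27a, known from skin, rose to 7568, 8974 and 9354 in HD-WNT5B libraries, against 926, 1015 and 908 in HD-Control libraries (log2 difference 3.18, SE 0.08, limma adjusted p = 3.47e-09). Pf4, the platelet chemokine Cxcl4, rose to 21.5, 85.1 and 62.2, against 1.59, 2.95 and 2.46 in HD-Control libraries (3.29, SE 0.47, adjusted p = 1.98e-04). Ccl17 was thus not alone among chemokine ligands in being higher in HD-WNT5B than in HD-Control libraries.

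Of 30 other cytokine genes 19 were tested. In HD-Control against WT-Control 5 rose, 0 fell and 14 did not pass (background 24.5% higher and 20.7% lower, median -0.20 against 0.02). Of these 5, Tnf, Osm and Csf3 would not pass the filter without the HD-Control libraries. They had to be high there, so the count is a description. Tnf, a cytokine that induces chemokines, was at 0 in all 3 HD-WNT5B libraries, against 18.3, 27.3 and 28.9 in HD-Control and 4.93, 4.85 and 1.46 in WT-Control libraries. Its HD-Control mean was within 2-fold of that of Ccl4, a level at which a 0 was common in HD-WNT5B libraries. Csf3, the granulocyte growth factor, was at 0 in all 3 HD-WNT5B libraries, against 35.1, 51.6 and 55.4 in HD-Control and 0.704, 0 and 0 in WT-Control libraries. The count of 5 was 1, of 17 tested, without any 1 HD-Control library. Of 19 tested it was 3 without any 1 WT-Control library or with the replicate number as a block, and 8 without the second HD-WNT5B library.

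Of the same 19 cytokine genes 4 rose in HD-WNT5B against HD-Control, 9 fell and 6 did not pass (background 35.8% higher and 41.7% lower, median -1.75 against -0.23). Tnf, Osm and Csf3 are among the 9. Mif, macrophage migration inhibitory factor, rose to 16919, 16980.0 and 19310, against 4044, 3943 and 4005 in HD-Control libraries (log2 difference 2.15, SE 0.06, limma adjusted p = 2.76e-09, and 0.627 with the length trend removed). Flt3l, a growth factor of dendritic cells, rose to 1079, 880.2 and 1164, against 93.5, 113 and 107 in HD-Control libraries (3.27, SE 0.19, adjusted p = 3.98e-07). Of the exon bases of Flt3l, 22.1% are shared with Gm45713.

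Target genes of NF-kappaB, the transcription factor that drives many inflammatory chemokines, were described from a list of 12. In HD-Control against WT-Control 6 rose, 1 fell and 5 did not pass (background 24.5% higher and 20.7% lower, median 0.76 against 0.02). Between HD-WNT5B and HD-Control 2 rose, 6 fell and 4 did not pass (background 35.8% and 41.7%, median -0.59 against -0.23). Nfkbia, the inhibitor that NF-kappaB induces against itself, was at 9464, 8955 and 7941 in HD-WNT5B libraries, against 2737, 2794 and 2709 in HD-Control and 916, 896 and 922 in WT-Control libraries. It rose in HD-WNT5B against HD-Control (log2 difference 1.67, SE 0.07, limma adjusted p = 3.51e-08) and in HD-Control against WT-Control (1.59, SE 0.07, adjusted p = 8.7e-07), the same order of groups as Ccl17. Zfp36, whose protein degrades inflammatory messages, was at 118, 70.7 and 227 in HD-WNT5B libraries, against 1104, 1117 and 1158 in HD-Control and 256, 232 and 223 in WT-Control libraries. It rose in HD-Control (2.24, SE 0.36, adjusted p = 0.0011) and fell in HD-WNT5B against HD-Control (-3.15, SE 0.36, adjusted p = 4.19e-05). HD-Control was thus above both other groups, as for Ccl2.

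Markers of blood-borne leukocytes differed between the groups as well. Of 10 monocyte and neutrophil markers 6 passed the filter, each with fewer than 3 WT-Control libraries at 10 or more, so they passed through the HD groups. A count of them is a description and is given only in the last section, for its change with the processing. The summed level of the 10 was 1714 to 2072 in HD-WNT5B libraries, against 1055 to 1178 in HD-Control and 19.7 to 27.5 in WT-Control libraries. S100a8, a granule protein of neutrophils, was at 762, 604 and 703 in HD-WNT5B, against 299, 243 and 281 in HD-Control and 1.41, 2.42 and 2.19 in WT-Control libraries. The sum was thus highest in HD-WNT5B libraries, the order of Ccl17, whereas Ccl2 and Ccl4 were at 0 there. With the trend of exon length removed, however, HD-WNT5B minus HD-Control was -0.282 for S100a8, -0.985 for S100a9 and 0.151 for Retnlg. The order of the HD groups was thus not kept for S100a8 and S100a9. Ngp and Retnlg were at 0 in all WT-Control libraries, and Ly6c2, Plac8, Camp and Ltf in all HD-WNT5B libraries. The 8 lymphocyte markers in the files summed to 2191 to 2743 in HD-WNT5B, against 5494 to 5705 in HD-Control and 6721 to 7033 in WT-Control libraries, the reverse order, and 7 of them were at 0 in all HD-WNT5B libraries. Only Cd4 passed the filter, and it made up the whole sum in HD-WNT5B libraries, so the order is that of 1 gene and not of the set. The other 7 were below the filter, as was Ccl4, at whose level a 0 was common in these libraries. Of 8 markers of border macrophages, the resident macrophages of meninges and vessels, 7 were tested. In HD-Control against WT-Control 1 rose and 4 fell (background 24.5% higher and 20.7% lower). In HD-WNT5B against HD-Control 1 rose and 5 fell (background 35.8% higher and 41.7% lower, median -0.93 against -0.23). Cbr2, Clec10a and Folr2 passed the filter through the WT-Control libraries alone, and Lyve1 would not pass it without the HD-Control libraries. These genes had to be high in that group, so the counts are a description. The summed level of the 8 was 345 to 492 in HD-WNT5B, against 250 to 292 in HD-Control and 286 to 317 in WT-Control libraries, with Mrc1, Cbr2, Clec10a and Folr2 at 0 in HD-WNT5B. The part of these sets in the levels of Ccl2, Ccl3, Ccl4 and Ccl17 was not tested.

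Of 14 microglia markers 12 fell, 1 rose and 1 did not pass in HD-Control against WT-Control (background 24.5% higher and 20.7% lower, median -1.91 against 0.02), and in HD-WNT5B against HD-Control 7 rose, 0 fell and 7 did not pass (background 35.8% and 41.7%, median 0.53 against -0.23). Their summed level was 30580 to 33573 in HD-WNT5B, against 14031 to 14126 in HD-Control and 28207 to 28685 in WT-Control libraries. The sum was thus highest in HD-WNT5B, although 8 of the 14 fell, 5 rose and 1 did not pass there against WT-Control (background 35.9% higher and 42.1% lower, median -0.85 against -0.245). P2ry12, a receptor of resting microglia, was at 408, 607 and 510.4 in HD-WNT5B, against 407, 360 and 401 in HD-Control and 2414, 2365 and 2513 in WT-Control libraries. C1qa, a complement chain of microglia, was at 9712, 10135 and 11142 in HD-WNT5B, against 2160, 2111 and 2185 in HD-Control and 3131, 2969 and 2988 in WT-Control libraries. HD-WNT5B minus HD-Control was 2.26 for C1qa and 1.32 for C1qb, and 1.12 and 0.234 with the length trend removed. Cx3cr1 and C1qa were thus highest in HD-WNT5B libraries, and Csf1r and P2ry12 in WT-Control libraries. The part of these markers in the levels of Cx3cr1 and Csf1r was not tested.

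The level of each member per length of exon gives their order within a group. In HD-WNT5B libraries, values per 1000 exon bases were highest for Ccl17 (5993 ± 955, SD, n = 3) and Cx3cl1 (5259 ± 526), which overlapped, ahead of Cxcl14 (3446 ± 512), Il34 (1337 ± 265) and Il33 (377 ± 50.7). Csf1, Cxcl12 and Ccl3 overlapped below them, and Ccl2 and Ccl4 were at 0. In HD-Control libraries Cx3cl1 (9573 ± 29.6) and Cxcl14 (1110 ± 35.8) led, Ccl17 (640 ± 42.0) stood above Il33 (292 ± 13.8), Csf1 and Cxcl12, and Ccl2 stood above Ccl4. All neighbours in that order were apart. In WT-Control libraries the order was Cx3cl1 (14402 ± 126), Cxcl14 (1933 ± 24.7), Il33 (1776 ± 34.7), Il34 (1308 ± 32.7), Cxcl12 (557 ± 2.95), Csf1 (216 ± 4.65) and Ccl17 (30.8 ± 2.32), then Ccl3, Ccl4 and Ccl2. Ccl3 and Ccl4 overlapped there, and all other neighbours were apart. These levels are without removal of the length trend that the HD-WNT5B libraries carried. Ccl17 was level with Cx3cl1 in HD-WNT5B libraries, at rank 4 in HD-Control and at rank 7 in WT-Control libraries.

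**Figure D4:**
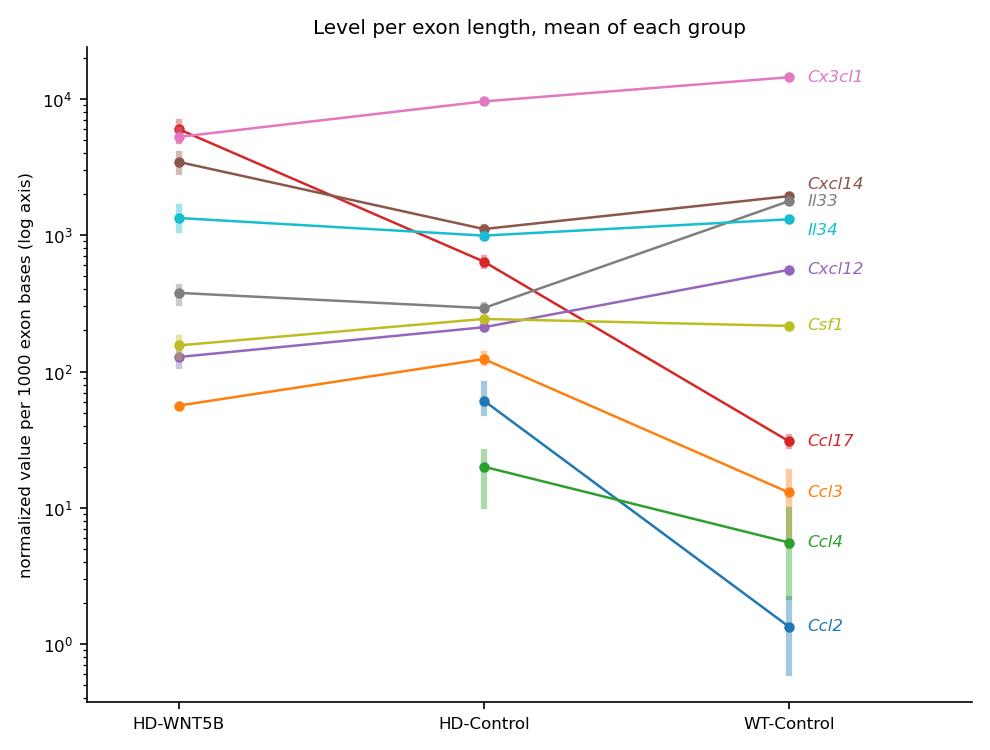
Mean normalized value per 1000 exon bases (log axis) of each gene in HD-WNT5B, HD-Control and WT-Control libraries, with the range of the 3 libraries as a bar; lines join the means of a gene. Ccl2 and Ccl4 have no HD-WNT5B point because all 3 libraries are at 0, and Ccl3 has no bar there because 1 library is at 0. Ccl17 reaches the level of Cx3cl1 in HD-WNT5B libraries.

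Exon length moved with the HD-WNT5B values over the whole table. In HD-WNT5B against HD-Control the median log2 difference of all genes tested was 0.77 in the shortest of 4 equal bins of exon length (243 to 2753 bases), -0.07 and -0.40 in the middle bins and -0.88 in the longest (6742 to 123179 bases). In HD-Control against WT-Control the 4 medians lay between 0.00 and 0.05. Ccl17, with 514 exon bases, has the shortest exon length of the members, and Cxcl12, with 8176, the longest. With the length trend removed, an alternative chosen after seeing the data, HD-WNT5B was higher than HD-Control by 1.25 for Ccl17, 1.10 for Cxcl14 and 0.30 for Il33 on the log2 scale, and lower by 0.64 for Cx3cl1. The part of length in the differences of single genes was not tested further.

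**Figure D5:**
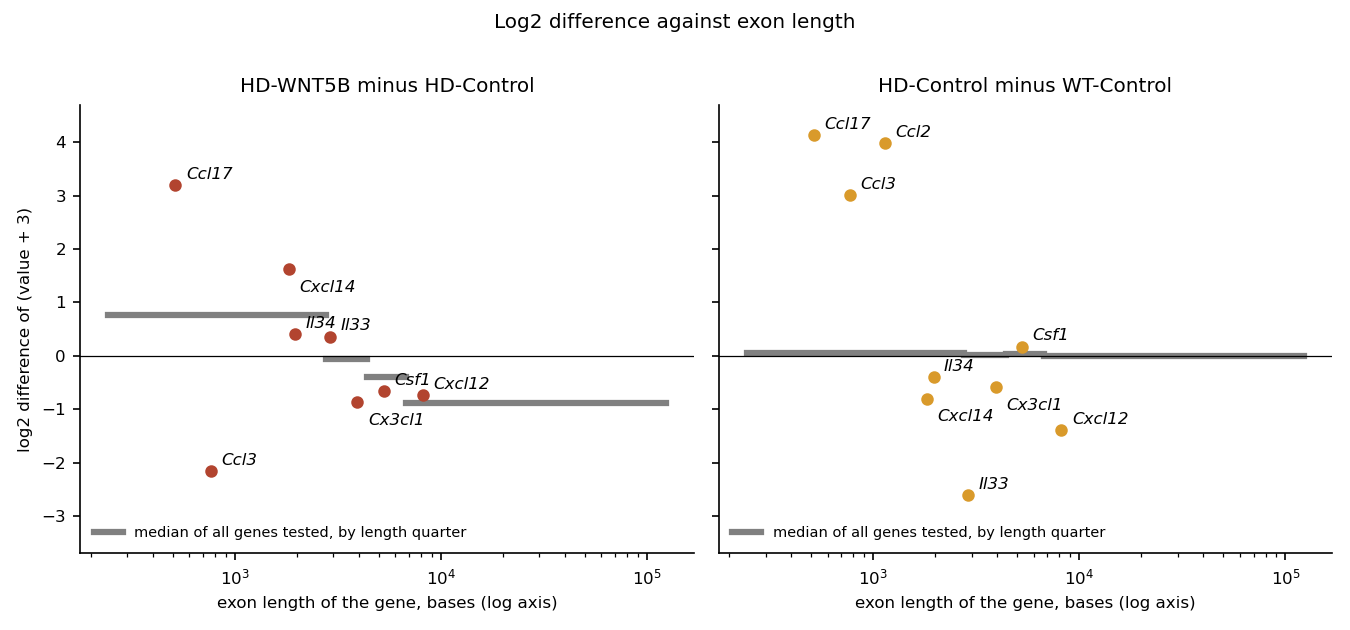
Log2 difference of (value + 3) against exon length (log axis) for HD-WNT5B minus HD-Control (left) and HD-Control minus WT-Control (right), with members as points and the medians of all genes tested in 4 equal bins of exon length as grey lines. The grey lines step down to -0.88 on the left and stay near 0 on the right, where Ccl17, Ccl2 and Ccl3 lie above 3.

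The genes nearest in pattern were found over the 9 libraries by the root mean square difference of centred log2 values, among 14347 genes. Nearest to Il33 were P2ry12 (0.227) and Apln, a peptide of endothelium (0.288). Nearest to Cx3cl1 were Coro2b (0.038) and Fam120b (0.039), to Cxcl12 Lix1 (0.098) and Car7 (0.119), and to Cxcl14 Dbp (0.093) and Ankrd63 (0.097). Nearest to Ccl17 were Retnlg (0.546) and Gnmt (0.694), and to Ccl2 Ccn1 (0.544) and P2ry4 (0.629), at distances larger than for the abundant members. Nearest to Csf1 were Zfp354a (0.057) and 1700066M21Rik (0.062), to Il34 Gmds (0.038) and Mis12 (0.062), and to Ccl3 Lvrn (0.673) and Myl1 (0.787).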

How the data were processed

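RNA was sequenced from poly(A) libraries made with the unstranded NEBNext Ultra kit, per the labels' protocols, and aligned with STAR to mm10, per the submitters' processing notes. The counter, annotation, normalization and versions were not given in the sources used here. The deposited signal is 1 normalized decimal value per gene and library. From the values themselves it is an estimated read count divided by 1 factor per library, without division by gene length: 97.5 to 98.8% of low values were whole multiples of the value of 1 read (tolerance 0.01). All 21853 identifiers matched GENCODE M21, which gave symbols, positions and exon lengths.

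Members, lists and the naming rule were all chosen with earlier results of these data known. Named were all members, all direct receptors, up to 4 called genes with the smallest p per list and comparison (not all are printed), and the 2 genes nearest in pattern to each member. Adam17 was added after its values were seen. A further gene is not reported here.

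The plan was limma on log2(value + 3) for normalized values, and a test on counts if raw counts were found. The deposited values are normalized. Thus log2(value + 3) was fitted with limma 3.58.1 in R 4.3.3 over all 9 libraries, with a mean per group, 6 residual degrees of freedom and a variance trend. The 15411 genes at 10 or more in 3 or more libraries were kept. A gene counts as changed at a two-sided Benjamini-Hochberg adjusted p below 0.05 over all of them. The fit shares the spread of a gene over the 3 groups. Where HD-WNT5B libraries scatter more, standard errors and p-values of HD-Control against WT-Control are thus too large. Those of the comparisons with HD-WNT5B are then too small. Log2 differences are the first-named group minus the second on the log2(value + 3) scale, which understates the change of low genes. Ratios of reads for low genes used whole reads from dividing by the value of 1 read, with exact binomial intervals (95%) that cover counting error only. Python 3.11.15 with pandas 2.3.3 and scipy 1.17.1 was used for the rest. The fit was tested on simulated data. Replicates carry numbers 1 to 3 in the labels. Libraries of the same number did not deviate together (9 pairs, correlations of deviations -0.0782 to 0.0215), so no block was used. No pair of libraries was identical.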

Additional observations from a re-analysis of the deposited data

How the results depend on the processing

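Alternatives covered the scale, the added constant (1 or 10), the filter (none, or 50), a weight per group, the 2 groups alone, the replicate block, single libraries left out and removal of the exon length trend, the last chosen after seeing the data. Count tests on recovered reads were not run, although whole reads were recovered for the ratios of low genes. Equal totals moved the median of all genes by -0.540 in HD-WNT5B against HD-Control and -0.557 against WT-Control, upper-quartile factors by -0.373 and -0.418, and removal of the length trend by 0.299 and 0.300. The share of called genes that were higher was then 32.02% and 36.12% against HD-Control (46.19% as reported) and 31.65% and 35% against WT-Control (46% as reported) with the first and second of these. Genes called in HD-Control against WT-Control were 12779 with a weight per group and 12908 with the 2 groups alone, against 6957, each of 15411 tested. In that comparison 9 of 12 other chemokine ligands passed with either of these and 8 of 25 without a filter, against 4 of 12 (background 45.1%). Of 19 cytokines 15 passed with a weight per group, 16 with the 2 groups alone and 3 with the replicate block, against 5. With the filter at 50, 2 of 13 passed, and without single libraries 1 to 8 of the 17 to 19 tested. Of 9 receptors 8 passed with a weight per group or the 2 groups alone, against 5, and with the filter at 50 it was 3 of 6. Of 12 NF-kappaB targets 11 passed with either, against 7, and of 20 processing and signalling genes 17 with either and 4 to 10 without single libraries, against 7. In HD-WNT5B against HD-Control 4 of 12 other ligands passed with the 2 groups alone and 3 to 9 of 11 or 12 without single libraries, against 7 of 12. There 7 of 20 processing and signalling genes passed with a weight per group, against 13 of 20. Of the monocyte and neutrophil markers, 2 of 6 passed with that weight and 7 of 10 without a filter, against 4 of 6. These markers passed the filter through the HD groups, so their counts are a description (background 77.5%). In HD-WNT5B against WT-Control 9 of 25 other ligands passed without a filter, against 4 of 12 (background 77.9%). Of the cytokines 15 of 20 passed with equal totals, 14 of 28 without a filter and 5 of 19 with a weight per group, against 9 of 19. The replicate block gave 6402, 11782 and 11891 genes called in the 3 comparisons, against 6957, 11942 and 12012, and the labels give no pairing. Signs turned in these cases. In HD-WNT5B minus HD-Control they were Il33 with equal totals (-0.191) and upper-quartile factors (-0.021), Il34 with equal totals (-0.143) and the length trend removed (-0.039), and Cxcl12 (0.005), S100a8 (-0.282) and S100a9 (-0.985) with the length trend removed. In HD-WNT5B minus WT-Control they were Ccl3 without the third HD-WNT5B library (-0.269, range to 2.272) and with the length trend removed (-0.761), and C1qb with that removal (-0.173). Il34, at 0.01, turned with equal totals (-0.567), upper-quartile (-0.423) and trimmed-mean factors (-0.010), the length trend removed (-0.464), and without the third WT-Control (-0.007) or HD-WNT5B library (-0.134, range to 0.149). The cause of these turns was not tested, beyond the shift of all genes that a scale brings. By counting error alone, a value below 4.82 to 6.43 cannot be told from 0 in HD-WNT5B libraries, and the scatter between these libraries comes on top.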
